A study of Mus musculus with 12 samples.

Results

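Diabetic hearts were compared with control hearts when both had been exposed to pargyline. The comparison held 6 of the 12 arrays of the series: 3 of control mice given pargyline (C + P) and 3 of streptozotocin-diabetic mice given pargyline (D + P), taken by their labels. All mice were male C57BL6/J, 5 months old, and 1 array was hybridised per heart. The diabetic mice had received streptozotocin, which destroys pancreatic beta cells, on 5 days at a daily 50 mg/kg, and were counted as diabetic at a blood glucose of at least 17 mM. C + P and D + P received pargyline, an irreversible inhibitor of both monoamine oxidases, over 12 weeks at a daily 50 mg/kg. Control mice without streptozotocin or pargyline (C) and diabetic mice without pargyline (D), 3 arrays each, are used here to tell a difference that is also present without pargyline from a level found in C + P alone. The model removes insulin through a toxin, so effects of diabetes and of streptozotocin itself cannot be told apart, and heart RNA is a mixture of cell types.

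Without insulin the heart takes up less glucose and relies more on fatty acids and ketone bodies. Fatty acids activate PPAR alpha, a nuclear receptor whose targets include *Angptl4*, *Pdk4* and *Acot1*, which are known markers of this state in the diabetic heart. A different class of genes, the immediate early genes, is transcribed within minutes of a stimulus such as adrenergic signalling, stretch, ischaemia or handling of the tissue, without new protein synthesis, and most of their transcripts are short-lived. The best known encode transcription factors (*Fos*, *Fosb*, *Egr1*, *Egr2*, *Nr4a1*).

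The 6 arrays had 25157 to 28272 of 59305 non-control spots well above background and 0 saturated spots. C + P and D + P lay on 1 slide, read in 1 scan, and C and D on another. Nondiabetic hearts were in row 1 and diabetic hearts in row 2 of both slides, so slide row and diabetes cannot be told apart in any comparison below. Over the tested probes, arrays correlated (Pearson's r) at 0.960 to 0.986 within C + P or D + P and 0.955 to 0.981 between them. Cardiomyocyte markers were well above background on all 6 arrays for 7 of 7 genes, and their summed level was 19.2 to 19.5 on the log2 scale in C + P and 19.2 to 19.4 in D + P. Of 4 tested atrial markers, 3 were well above background on all arrays of both groups.

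Among 30859 probes, 13 were lower in D + P (0.0421%) and 1 was higher (0.00324%) at a Benjamini-Hochberg adjusted limma p of 0.05, and 2303 had an unadjusted p under 0.05. The probe that rose was that of *Angptl4*. Those that fell were *Egr1*, *Egr2*, *Fos*, *Fosb*, *Nr4a1*, *Ier2*, *Sik1*, *Apold1*, *Thbs1*, *Cxcl1*, *Ppbp*, *Klk1b5* and *Fnip2*. Groups that did not overlap were found for 13.9% of all probes, so a lack of overlap is common here. The count was 5 to 7 without any 1 of 10 arrays, 12 without the third D array and 32 without D + P replicate 1. *Egr1*, *Nr4a1*, *Ier2* and *Cxcl1* passed whichever array was left out. With the slide column as a block 6 of the 14 passed (*Angptl4*, *Egr1*, *Egr2*, *Nr4a1*, *Ier2* and *Cxcl1*), and with only the 6 arrays fitted 2 did (*Egr1* and *Fos*). With the normexp background all 13 falls were smaller, from -3.64 for *Egr1* to -0.32 for *Fnip2*, and *Egr2*, *Sik1*, *Klk1b5* and *Fnip2* missed the threshold.

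To separate the patterns, a probe was called diabetes-type where the 3 D arrays also lay on the same side of the 3 C arrays. Otherwise it was C + P-only where the 3 C + P arrays lay beyond the other 9. Failing both, it was D + P-only where the 3 D + P arrays lay beyond the other 9. Of the 13 probes that fell, 9 were C + P-only, against 1.96% of all probes lower in D + P, 3 were diabetes-type, against 11.8%, and 1 was D + P-only, against 1.24%. Their median difference was -2.91 between D + P and C + P and -0.06 between D and C. The C + P arrays lay above all 9 others for 11 of the 13, because *Ier2* and *Cxcl1*, classed as diabetes-type, also had their highest levels in C + P (2.56% of all probes lower in D + P had C + P above the other 9). The counts differ from the background in part by construction, since a probe with extreme C + P arrays is more easily called in a comparison with C + P.

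The same separation was made in the wider set of probes with an unadjusted p under 0.01 and no overlap, which held 264 higher in D + P (0.856%) and 328 lower (1.06%). Of those higher, 102 were diabetes-type (38.6%, against 14.5% of all probes higher in D + P), 52 were C + P-only, meaning lowest in C + P (19.7%, against 1.4%), and 46 were D + P-only (17.4%, against 1.75%). Of those lower, 105 were diabetes-type (32.0%), 84 were C + P-only (25.6%) and 60 were D + P-only (18.3%). C + P lay below all other arrays in 76 of the 264 (1.9% of all probes higher in D + P) and above them in 111 of the 328. These counts, and both the C + P-only and D + P-only classes, require that D + P and C + P do not overlap. That holds for 13.9% of all probes but for every probe of this set, so their shares exceed the background in part by construction. D and C share no array with D + P and C + P. The difference between D and C had the same sign in 183 of the 264 (69.3%) and in 234 of the 328 (71.3%), against 53.9% of all probes.

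**Figure D1:**
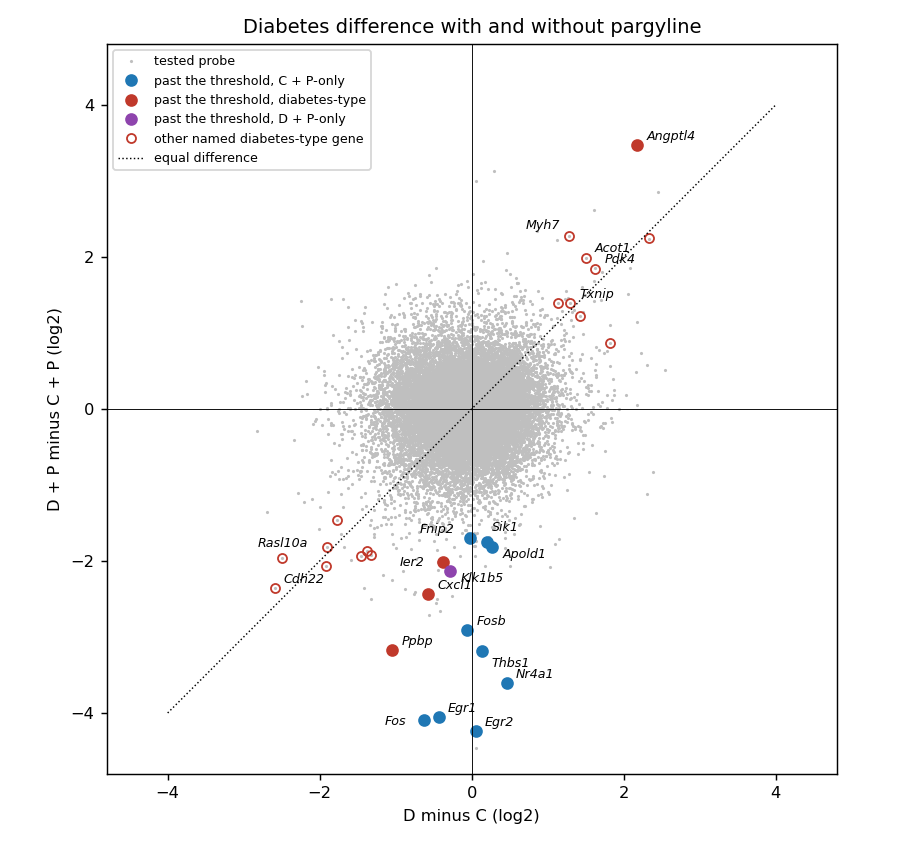
Log2 difference between D + P and C + P (vertical axis) against that between D and C (horizontal axis) for each of 30859 tested probes in grey, with the 14 probes past the threshold as filled circles and other named diabetes-type genes as open circles. The C + P-only probes lie near 0 on the horizontal axis, between -0.63 for *Fos* and 0.46 for *Nr4a1*, while *Pdk4* and *Txnip* lie near the dotted line of equal difference.

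The largest differences were in immediate early genes of the transcription factor kind. *Egr1*, a zinc finger factor induced by growth signals (chromosome 18, 35024395 to 35024454 of mm9, the build of all probe positions given here), measured 12.37, 11.60 and 11.74 log2 units in C + P and 8.05, 7.86 and 7.63 in D + P. The C + P arrays stood more than 3 units above every other array, since C averaged 8.08 and D 7.65. It fell by 4.05 (SE 0.27, adjusted p 0.000462).

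*Nr4a1*, an orphan nuclear receptor (chromosome 15, 101105071 to 101105130), measured 12.73, 12.45 and 11.62 in C + P and 8.50, 8.66 and 8.81 in D + P. The D + P levels lay within the range of D (8.45 to 9.41). It fell by 3.61 (SE 0.30, adjusted p 0.00124). *Egr1* and *Nr4a1* were the only probes past the threshold in the interaction, the diabetes difference with pargyline minus that without (2 of 30859, 0.00648%). The interaction was -3.62 for *Egr1* (SE 0.38) and -4.07 for *Nr4a1* (SE 0.42), both at an adjusted p of 0.0221. D minus C was -0.43 for *Egr1* and 0.46 for *Nr4a1*, with unadjusted limma p values of 0.135 and 0.153. With 1 array left out, both passed without D replicate 3, 1 of the 2 passed without C + P replicate 3, and 0 passed without any of the 10 remaining arrays.

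*Fos*, a subunit of the AP-1 transcription factor (chromosome 12, 86818118 to 86818177), measured 9.0, 9.45 and 9.16 in C + P and 5.26, 4.75 and 5.34 in D + P. It was not well above background on any D + P array, so the difference is a bound, at least 16.0-fold lower in D + P (adjusted p 0.0193). *Egr2* (chromosome 10, 67004758 to 67004817) measured 9.44, 7.47 and 7.87 in C + P and 4.84, 4.18 and 3.06 in D + P. It was at least 9.15-fold lower (adjusted p 0.0254), a call kept in 3 of 12 fits that left out 1 array. *Fosb*, another AP-1 subunit (chromosome 7, 19888168 to 19888227), measured 7.17, 7.85 and 8.08 in C + P and 5.29, 4.05 and 5.03 in D + P, at least 6.02-fold lower (adjusted p 0.0254). That call was also kept in 3 of the 12 fits and was lost with the slide column as a block, as was that of *Fos*, which was kept in 7. For all of these 3 the D + P levels overlapped those of C or D, and C + P alone was above background on every array. Each bound sets the C + P mean against the dim arrays, each at its own value or at its lowest signal well above background, whichever was larger. The bounds hold for the reported background correction: with normexp the fitted differences were -2.63 for *Fos*, -2.15 for *Egr2* and -1.30 for *Fosb*, each smaller than its bound.

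*Ier2*, a short-lived nuclear protein (chromosome 8, 87185211 to 87185245), measured 9.67, 9.54 and 9.76 in C + P and 7.87, 7.44 and 7.62 in D + P. It fell by 2.01 (SE 0.15, adjusted p 0.00081), with a further probe of the gene below background on every array of both groups and 0.48 higher in D + P. D minus C was -0.38. *Apold1*, an endothelial early response gene (chromosome 6, 134936562 to 134936621), measured 8.78, 9.37 and 8.87 in C + P and 7.36, 7.13 and 7.08 in D + P. It fell by 1.82 (SE 0.18, adjusted p 0.00593) and narrowly missed the threshold in the fit without D + P replicate 2. *Sik1*, a salt-inducible kinase that represses CREB coactivators (chromosome 17, 31981255 to 31981314), measured 8.84, 9.04 and 8.90 in C + P and 7.74, 6.90 and 6.87 in D + P. It fell by 1.75 (SE 0.24, adjusted p 0.0346), a call kept in 1 of 12 fits that left out 1 array. The calls of *Apold1* and *Sik1* were lost with the slide column as a block and with only the 6 arrays fitted.

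**Figure D2:**
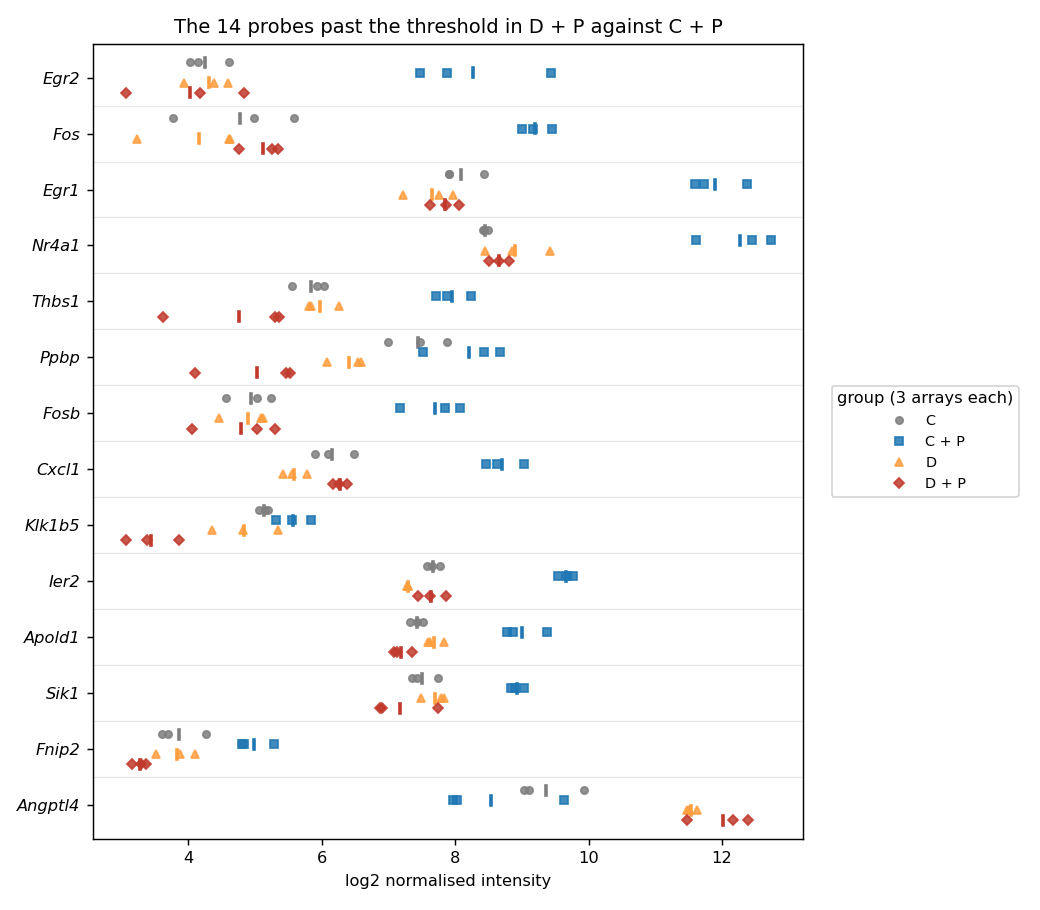
Log2 normalised intensity (horizontal axis) of the 14 probes past the threshold in D + P against C + P, with 1 symbol per array, 3 arrays in each of C, C + P, D and D + P, and the group mean as a vertical bar. For 11 of the 13 probes that fell, the 3 C + P squares lie to the right of all 9 other symbols, and for *Angptl4* the 6 diabetic symbols lie to the right of the 6 nondiabetic ones.

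Sequence ahead of the start sites is shown for the immediate early genes among the called probes that the promoter table held, because these genes are known to be switched on through the CArG box, which binds serum response factor, and through sites for CREB that contain TGACG. Each line gives the 100 bases before the annotated start on the gene's own strand, from RefSeq on GRCm38.p6, with matches on either strand in capitals. Where a gene had several promoters, the one with the most matches is shown.
*Fos*, chr12:85473790-85473889, plus strand: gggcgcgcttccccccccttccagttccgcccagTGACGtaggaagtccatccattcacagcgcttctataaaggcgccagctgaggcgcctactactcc
*Fosb*, chr7:19310046-19310145, minus strand: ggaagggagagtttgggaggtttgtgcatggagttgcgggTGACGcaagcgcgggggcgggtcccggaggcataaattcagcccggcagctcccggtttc
*Egr2*, chr10:67537769-67537868, plus strand: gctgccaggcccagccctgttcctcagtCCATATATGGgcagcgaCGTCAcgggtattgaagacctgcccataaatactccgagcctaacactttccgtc
*Nr4a1*, chr15:101266746-101266845, plus strand: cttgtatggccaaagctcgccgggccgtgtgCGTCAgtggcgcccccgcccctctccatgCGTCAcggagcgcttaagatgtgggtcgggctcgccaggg
*Apold1*, chr6:134981901-134982000, plus strand: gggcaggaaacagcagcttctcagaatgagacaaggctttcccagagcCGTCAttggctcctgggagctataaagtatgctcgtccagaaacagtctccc
The table held a promoter for 9 of the 13 genes that fell, among them *Fnip2*, whose called probe was not well above background on any array. TGACG was present in 7 of the 9 (*Apold1*, *Cxcl1*, *Egr2*, *Fnip2*, *Fos*, *Fosb* and *Nr4a1*), where 23.1% of 27025 genes have it, and the CArG box in 2 of the 9 (*Egr2* and *Ppbp*), against 1.81%. In *Egr2* the CArG box began 72 bases before the start and did not overlap the TGACG match. The counts cover the whole promoter sequence held, not only the 100 bases shown, and any promoter of a gene. Sequence outside the promoters held was not searched. A match is a string of letters and not a shown binding site.

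The immediate early gene list describes the class as a whole, with the brightest probe of each gene. Of 44 tested genes, 10 were higher and 34 lower in D + P, and the median difference was -0.46, against 0.00 over all 16604 genes, of which 50.3% were higher. In the list, 7 genes passed the threshold in the lower direction, where 12 of all 16604 genes did, and 21 had an unadjusted p under 0.05 in that direction, where 4.1% of all genes did. Groups did not overlap in the lower direction for 22 genes, against 7.0% of all genes. The list's median was -0.02 between D and C and 0.57 between C + P and C, and 17 of its 44 genes were C + P-only, against 319 of 16604 genes. The C + P against C value also carries the slide, which cannot be told apart from pargyline there.

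Several members below the threshold were also lower in D + P. *Junb* measured 12.96, 11.95 and 12.05 in C + P and 10.98, 10.60 and 10.51 in D + P (difference -1.63, adjusted p 0.16). *Dusp1*, a phosphatase that switches off MAP kinases, differed by -1.34 in D + P (adjusted p 0.207), and *Btg2* by -1.49 (adjusted p 0.068). *Nr4a2*, a relative of *Nr4a1*, was at least 4.09-fold lower on a probe not well above background in D + P (adjusted p 0.0516) and differed by -1.66 on a brighter one (adjusted p 0.127). *Zfp36*, which promotes decay of AU-rich mRNAs, differed by -1.17 (adjusted p 0.223). *Klf4* differed by -1.7, a size set by D + P replicate 3 at 8.56 against 11.63 and 11.99 on the other 2 arrays.

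The list did not move as 1 block. *Gadd45g* was 0.94 higher in D + P (adjusted p 0.186), with 10.08, 9.76 and 9.38 in C + P and 10.69, 10.68 and 10.68 in D + P. *Gadd45b* was 0.66 higher (adjusted p 0.548) and *Rgs2* 0.85 higher (adjusted p 0.318). *Nr4a3*, *Per1* and *Sgk1* differed by -0.09, -0.28 and -0.09, each less than its SE. *Jun* differed by -0.49, and by -0.79 between D and C.

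*Thbs1*, encoding thrombospondin 1, a matrix protein released by platelets and stressed endothelium (chromosome 2, 117952585 to 117952644), measured 8.24, 7.72 and 7.88 in C + P and 5.37, 3.63 and 5.29 in D + P. It fell by 3.19 (SE 0.40, adjusted p 0.0254), with 1 of 3 D + P arrays well above background. The difference was -1.57 with the normexp background, and the call was kept in 3 of 12 fits that left out 1 array and lost with the slide column as a block. A further probe, well above background on all C + P and on 0 D + P arrays, missed the threshold (adjusted p 0.275). Of 40 tested matrix genes 20 were higher and the median difference was 0.01, with *Col1a1* at -0.27 (adjusted p 0.803). *Fnip2*, a folliculin partner (chromosome 3, 79263585 to 79263644), passed on a probe that was not well above background on any of the 12 arrays. A brighter probe of *Fnip2* differed by 0.02 (adjusted p 0.987), so its call has no level behind it.

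Of the chemokine and cytokine list, 1 gene passed the threshold. *Cxcl1*, a neutrophil attractant (chromosome 5, 91322080 to 91322139), measured 9.04, 8.46 and 8.62 in C + P and 6.17, 6.26 and 6.37 in D + P, and fell by 2.44 (SE 0.20, adjusted p 0.00124). Its levels were 5.91, 6.09 and 6.48 in C and 5.78, 5.55 and 5.43 in D, so the diabetic hearts lay below the controls in both settings but C + P stood alone at the top. Of 23 chemokine and cytokine genes tested, 4 were higher and 19 lower in D + P, with a median of -0.24 (-0.01 between D and C and 0.03 between C + P and C), and 3 of the 23 were C + P-only. *Ccl7* differed by -1.93 (adjusted p 0.255), *Ccl2*, the main monocyte attractant, by -1.30 (adjusted p 0.293), and the adhesion molecule gene *Icam1* by -0.81 (adjusted p 0.191), all C + P-only. *Cxcl12*, a chemokine made constitutively by stromal cells, was 0.49 higher (adjusted p 0.638).

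Heat shock genes were nearly all lower. Of 24 tested genes for cytosolic chaperones, 1 was higher and 23 were lower in D + P, 8 without overlap (7.0% of all genes), and 0 passed the threshold in limma, with 6 at an unadjusted p under 0.05. The median was -0.22, against -0.10 between D and C and 0.13 between C + P and C. The summed level of the list overlapped, at 18.64, 18.52 and 18.38 in C + P and 18.41, 18.10 and 18.45 in D + P. *Hsph1*, a nucleotide exchange factor for HSP70, measured 10.35, 10.34 and 9.90 in C + P and 9.09, 8.80 and 9.52 in D + P (difference -1.06, adjusted p 0.186). *Hsp90aa1*, the inducible HSP90 gene, differed by -0.75 (adjusted p 0.644) and *Dnaja1* by -0.40 (adjusted p 0.608), both highest in C + P. *Hspa1a*, inducible HSP70, differed by -0.62 (adjusted p 0.619). *Errfi1*, a feedback inhibitor of the EGF receptor counted in the glucocorticoid list, differed by -1.34 (adjusted p 0.233) and was C + P-only.

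Among markers of platelets, neutrophils, macrophages and red cells, *Ppbp* passed the threshold. Of 3 tested platelet markers, all were lower in D + P without overlap (7.0% of all genes), and the range of their summed level was 11.51 to 11.78 in C + P and 10.95 to 11.23 in D + P. Their median was -2.50 in D + P against C + P and -0.46 between D and C, where 0 of the 3 were higher. *Ppbp*, encoding a platelet granule chemokine (chromosome 5, 91198970 to 91199029), measured 8.44, 8.67 and 7.52 in C + P, 5.46, 5.53 and 4.11 in D + P, 7.00, 7.87 and 7.47 in C and 6.08, 6.55 and 6.59 in D. It fell by 3.18 (SE 0.42, adjusted p 0.0336), with 1 of 3 D + P arrays well above background, and was diabetes-type. It lost the threshold in 11 of 12 fits that left out 1 array. *Gp9*, a subunit of the platelet receptor for von Willebrand factor, was at least 3.51-fold lower in D + P (adjusted p 0.0823). *Pf4*, platelet factor 4, differed by -0.46 (adjusted p 0.519).

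Neutrophil markers were lower in 4 of 4 tested genes, of which 3 did not overlap (7.0% of all genes). The median was -0.94, against 0.51 between D and C, where 3 of the 4 were higher. *S100a8* measured 8.62, 6.99 and 6.82 in C + P and 6.30, 6.25 and 3.65 in D + P (adjusted p 0.555), and *S100a9* differed by -1.12 (adjusted p 0.63). Their summed level was 15.0 to 15.6 in C + P and 15.2 to 15.5 in D + P, and it is carried by *Csf3r*, which differed by -0.01. Of 8 macrophage and monocyte markers, 7 were lower, with a median of -0.53 and summed levels of 14.1 to 14.8 in C + P and 13.7 to 13.9 in D + P. Without pargyline, D minus C had a median of -0.26, with 1 of the 8 higher. *Adgre1*, encoding F4/80, measured 8.93, 8.22 and 8.06 in C + P and 7.67, 7.42 and 7.33 in D + P (adjusted p 0.374). *Ccr2*, a monocyte chemokine receptor, was the 1 marker of the 8 in the other direction, at 5.98, 5.40 and 5.89 in C + P and 6.19, 6.11 and 6.51 in D + P, without overlap (difference 0.51, adjusted p 0.727). The macrophage median was -0.30 without C + P replicate 1, which was the highest C + P array for 8 of the 8 markers. None of the 12 macrophage and neutrophil markers tested passed the threshold, and 6 had an unadjusted p under 0.05.

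*Slc4a1*, encoding the band 3 anion exchanger of red cells, measured 7.32, 6.68 and 7.56 in C + P and 4.85, 5.21 and 5.69 in D + P (difference -1.94, adjusted p 0.0823) and was C + P-only. The globin genes *Hba-a1* and *Hbb-bt* differed by -0.03 and -0.22 and the erythroid heme enzyme gene *Alas2* by -0.20, so the red cell list as a whole had summed levels of 17.2 to 17.7 in C + P and 17.4 on each D + P array. In whole tissue, fewer cells of a type and less RNA per cell cannot be told apart. Whether the blood cell markers have a part in the differences of the immediate early genes or of *Thbs1* and *Cxcl1* was not tested.

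**Figure D3:**
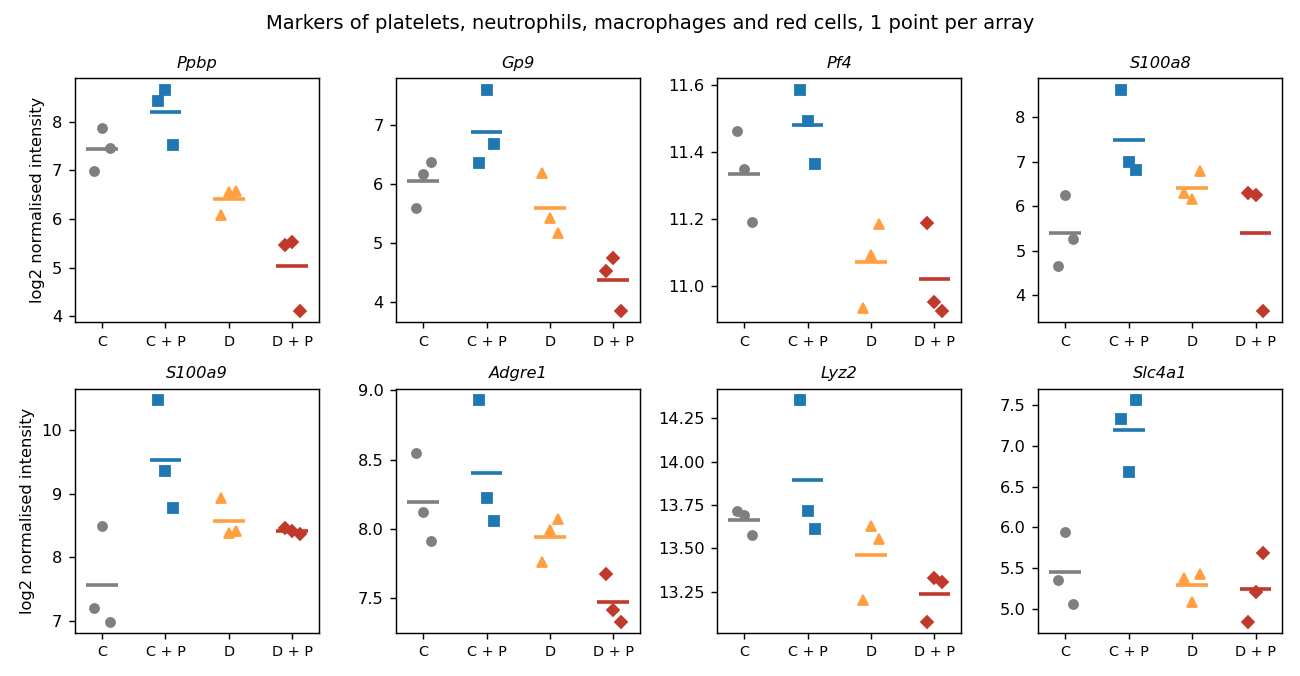
Log2 normalised intensity (vertical axes, each with its own range) of 8 marker genes of platelets (*Ppbp*, *Gp9*, *Pf4*), neutrophils (*S100a8*, *S100a9*), macrophages (*Adgre1*, *Lyz2*) and red cells (*Slc4a1*), with 1 point per array and the group mean as a line. The panels were chosen after their values were seen, among the markers whose 3 C + P arrays lie above the 3 D + P arrays. Not drawn are markers that overlap (such as *Csf3r* and *Hba-a1*) and *Ccr2*, which is higher in D + P. *Slc4a1* is at 6.68 to 7.56 in C + P and at most 5.94 elsewhere.

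*Klk1b5*, a kallikrein gene (chromosome 7, 51476012 to 51476071), was the D + P-only call. It measured 5.84, 5.32 and 5.56 in C + P and 3.07, 3.39 and 3.86 in D + P, well above background on 2 of 3 C + P arrays and on 0 D + P arrays. It was therefore at least 1.42-fold lower (adjusted p 0.0254, kept in 3 of 12 fits that left out 1 array and lost with the slide column as a block). Kallikrein genes are near copies of each other, so the probe may read several.

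Of the diabetes-type rises named here, 1 passed the threshold. *Angptl4*, a secreted inhibitor of lipoprotein lipase (chromosome 17, 33911880 to 33911939), measured 7.97, 9.63 and 8.03 in C + P and 11.48, 12.17 and 12.40 in D + P. It rose by 3.47 (SE 0.43, adjusted p 0.0254), and the diabetic arrays were above the nondiabetic ones in both settings, since C was at 9.04, 9.94 and 9.11 and D at 11.51, 11.62 and 11.48. The difference between D and C was 2.18 (SE 0.43), and the interaction of 1.29 missed the threshold (adjusted p 0.713). The call was kept in 4 of the 12 fits that left out 1 array, those that dropped replicate 2 of C, replicate 2 of C + P, the third D array or the first D + P array, with a difference of 3.18 to 4.01 over the 12.

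*Acot1*, a cytosolic acyl-CoA thioesterase, measured 9.64, 9.38 and 9.11 in C + P and 10.35, 11.82 and 11.93 in D + P (difference 1.99, adjusted p 0.151). D + P replicate 1 was the lowest of the 6 diabetic arrays. Without it *Acot1* passed at 2.50 (adjusted p 0.00217).

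*Pdk4*, the kinase that shuts off pyruvate dehydrogenase, measured 11.72, 12.54 and 10.94 in C + P and 12.77, 13.89 and 14.09 in D + P (difference 1.85, adjusted p 0.273). *Txnip*, an inhibitor of thioredoxin and of glucose uptake, measured 13.17, 13.43 and 12.65 in C + P and 14.27, 14.58 and 14.57 in D + P (difference 1.39, adjusted p 0.186). Neither gene overlapped between diabetic and nondiabetic arrays, with or without pargyline. *Scd4*, a stearoyl-CoA desaturase, was 2.24 higher on one probe (adjusted p 0.186) and 0.54 higher on a brighter probe (adjusted p 0.499).

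The contractile gene *Myh7*, encoding the slow fetal isoform of myosin heavy chain, measured 11.21, 11.48 and 11.54 in C + P and 12.42, 14.35 and 14.29 in D + P (difference 2.28, adjusted p 0.258). It passed without D + P replicate 1, at 2.91 (adjusted p 0.0454). A dimmer *Myh7* probe was 1.37 higher (adjusted p 0.543) and differed by -0.14 between D and C. *Upp1*, uridine phosphorylase, *Tac1*, the substance P precursor, and *Tmem47* were also diabetes-type rises, at 0.87, 1.23 and 1.40.

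The 10 diabetes-type falls with the largest mean of both differences were *Ppbp*, *Cxcl1*, *Cdh22*, *Rasl10a*, *Grin3b*, *Kcnj14*, *Poln*, *Plb1*, *Myl1* and *Gp49a*. Of these 10, *Ppbp* and *Cxcl1* passed, as did *Ier2*, a diabetes-type fall outside the 10, and the other differences ran from -2.36 (*Cdh22*) to -1.46 (*Gp49a*). *Poln*, a translesion DNA polymerase gene, was bright in every group and measured 9.71, 9.23 and 9.09 in C + P and 8.13, 6.88 and 7.21 in D + P (difference -1.94, adjusted p 0.109). *Rasl10a* and *Grin3b* were not well above background on any diabetic array and were at least 3.04-fold and 1.99-fold lower in D + P. D replicate 1 held the lowest D value for 9 of the 10 genes, all but *Cxcl1*. Of the 12 arrays it had the fewest spots well above background (23556) and the highest median coefficient of variation of repeated spots (35.3%).

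**Figure D4:**
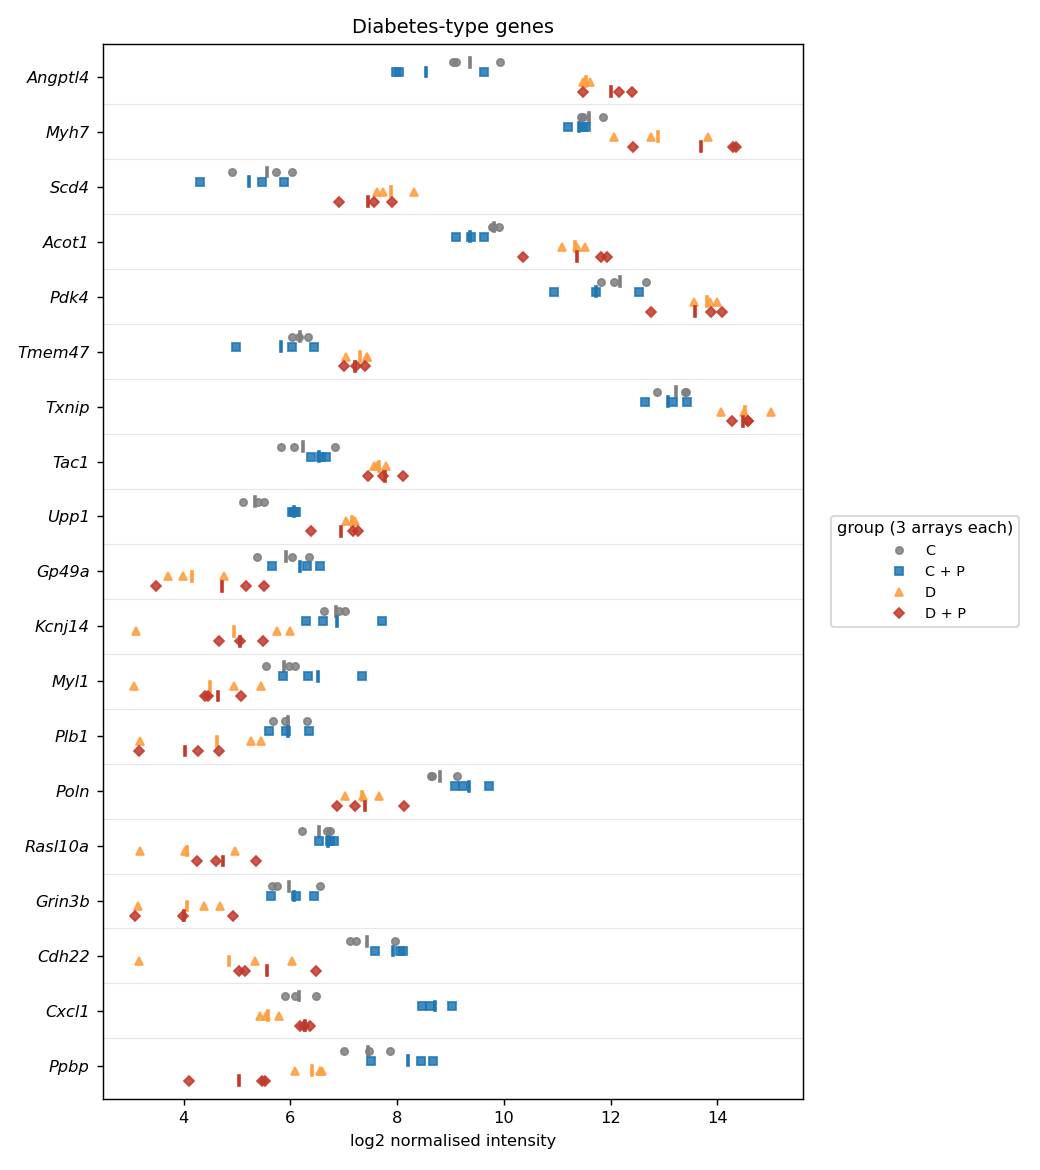
Log2 normalised intensity (horizontal axis) of 19 diabetes-type genes, with 1 symbol per array, 3 arrays in each of C, C + P, D and D + P, and group means as vertical bars. For the upper 9 genes the D and D + P symbols lie to the right of C and C + P, with D + P replicate 1 lowest of its group in 8 of the 9, and for 8 of the lower 10 they lie to the left, the exceptions being *Cxcl1* and *Gp49a*, whose D + P symbols overlap those of C.

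Of 25 mitochondrial fatty acid oxidation genes, 15 were higher in D + P and 8 higher without overlap (7.23% of all genes), 4 had an unadjusted p under 0.05 in that direction (3.69% of all genes), and 0 passed. The median was 0.18 (0.15 between D and C). *Mlycd*, which removes the malonyl-CoA that blocks fatty acid entry into mitochondria, was 0.56 higher (adjusted p 0.409), *Cpt1a*, the entry enzyme, 0.85 higher (adjusted p 0.542), and *Hadha* 0.40 higher (adjusted p 0.648). In peroxisomes *Ech1* was 0.63 higher (adjusted p 0.303), with 11 of 18 list genes higher.

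*Plin2*, a lipid droplet coat protein, measured 9.88, 10.07 and 9.66 in C + P and 10.49, 10.85 and 10.83 in D + P (difference 0.85, adjusted p 0.293), and *Hilpda*, an inhibitor of the triglyceride lipase, was 0.75 higher (adjusted p 0.455). Of 17 lipid droplet genes 10 were higher, 5 of them without overlap (7.23% of all genes). *Slc27a1*, a fatty acid transporter, was 0.79 higher (adjusted p 0.484) and the lipid chaperone *Fabp4* 0.65 higher (adjusted p 0.549). The ketone-using enzyme genes *Bdh1* and *Bdh2* missed the threshold (adjusted p 0.551 and 0.592), with a difference of -0.57 for *Bdh1* and no D + P array well above background for *Bdh2*.

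Of 25 glucose uptake and glycolysis genes 7 were higher and 18 lower, 5 of them without overlap (7.0% of all genes), with a median of -0.13 (0.05 between D and C). *Slc2a4*, the insulin-responsive transporter GLUT4, measured 15.13, 15.03 and 14.96 in C + P and 14.81, 14.43 and 14.44 in D + P (difference -0.48, adjusted p 0.546). *Pfkfb2* and *Eno3*, the muscle enolase, differed by -0.62 and -0.37 (adjusted p 0.619 and 0.641). *Pdk1* was 0.60 higher (adjusted p 0.608).

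Mitochondrial genes outside fat oxidation were mostly lower by small amounts. For the mitochondrial ribosome 8 of 50 genes were higher, with a median of -0.19, and for respiratory complex I 6 of 37, with a median of -0.12, while the medians between D and C were 0.01 and -0.01. Groups did not overlap in the lower direction for 9 and 8 of these genes (7.0% of all genes), and 0 passed in either list in limma, with 5 and 2 at an unadjusted p under 0.05. The medians were -0.28 and -0.20 when arrays were scaled to their 75th percentile. Respiratory complexes III, IV and V had 16 of 37 genes higher and a median of -0.03. *Ndufs8*, a complex I subunit, differed by -0.42 (adjusted p 0.595). *Ucp3*, an uncoupling protein of muscle induced by fatty acids, was 1.01 higher (adjusted p 0.608).

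**Figure D5:**
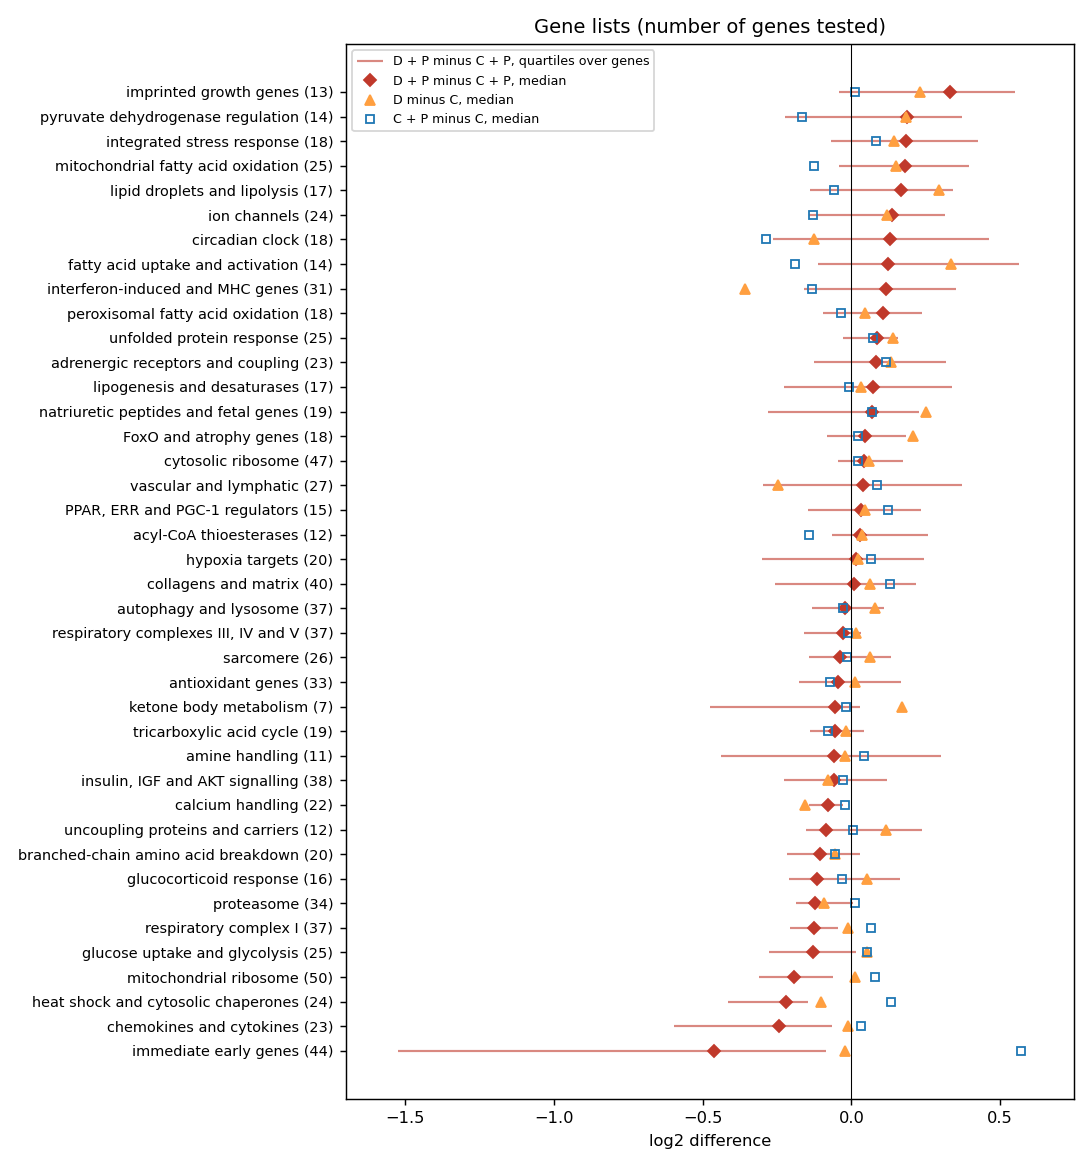
Median log2 difference over the genes of each list (horizontal axis) for D + P minus C + P with the quartiles over genes, for D minus C and for C + P minus C; the number of genes tested follows each name. Of the lists plotted the immediate early genes lie farthest from 0, at -0.46 in D + P against C + P with -0.02 in D against C, whereas mitochondrial fatty acid oxidation lies at 0.18 and 0.15.

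Of the 8 genes that the study chose for qRT-PCR, all were diabetes-type on the array, 7 were higher in D + P and *Slc2a4* was lower. The paper describes these genes as randomly selected. Their directions here are read from the same arrays as all other values, so they are not independent evidence. *Nppa*, atrial natriuretic peptide, measured 14.26, 14.29 and 14.74 in C + P and 15.47, 15.57 and 14.56 in D + P (difference 0.77, adjusted p 0.573), and D + P replicate 3 lay inside the C + P range. *Hif1a* was 0.22 higher (adjusted p 0.856) under pargyline and 1.13 higher between D and C, a difference of differences of -0.91 that missed the threshold (adjusted p 0.688). A further *Hif1a* probe went the other way, at 0.73 under pargyline and -0.43 between D and C, and another, not well above background in C + P, was higher in the diabetic hearts in both settings. *Prdx4* was 0.22 higher (adjusted p 0.766). *Rgs2*, which damps Gq-coupled signalling, measured 10.52, 11.20 and 10.71 in C + P and 11.25, 11.83 and 11.89 in D + P.

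Of 24 ion channel, 22 calcium handling and 26 sarcomere genes, 0 passed the threshold in limma and 4, 1 and 3 had an unadjusted p under 0.05. *Kcnip2*, a subunit of the transient outward potassium channel, measured 6.68, 6.28 and 6.18 in C + P and 7.07, 7.16 and 7.33 in D + P (difference 0.81, adjusted p 0.186), and was 0.73 higher in D than in C. *Kcne1* was 0.91 higher (adjusted p 0.347). *Ryr2*, the calcium release channel, differed by -0.85 under pargyline and by -1.12 without (adjusted p 0.559 for the former). *Adra2c*, an alpha-2 adrenergic receptor, was well above background on 3 of 3 D + P and 0 of 3 C + P arrays (adjusted p 0.236). *Adra1a* differed by -0.66 (adjusted p 0.419) but was 0.68 higher in D than in C. *Acta1*, skeletal alpha-actin, which belongs both to the fetal programme and to the skeletal muscle markers, measured 13.08, 12.23 and 11.93 in C + P and 11.49, 10.13 and 10.84 in D + P (difference -1.60, adjusted p 0.352), with -0.08 between D and C. The 3 skeletal muscle markers tested had a summed level of 13.28 to 14.09 in C + P and 12.74 to 13.22 in D + P, and *Myl1* differed by -2.13 and -1.46 on its 2 bright probes. Their part in the *Acta1* difference was not tested.

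Both pargyline targets were measured. *Maoa* differed by -0.40 (SE 0.32, adjusted p 0.805) and *Maob* by 0.41 (SE 0.18, adjusted p 0.666). Of 11 amine handling genes 4 were higher, and *Slc22a3*, an organic cation transporter, differed by -0.48 (adjusted p 0.495) and was diabetes-type.

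Stress and growth lists had a few members of note by size. Of 18 integrated stress response genes 12 were higher, 4 with an unadjusted p under 0.05: *Trib3*, a pseudokinase that binds AKT, was 0.71 higher (adjusted p 0.282), the folate enzyme *Mthfd2* 0.96 (adjusted p 0.522), *Shmt2* 0.46 (adjusted p 0.627) and *Pck2* 0.32 (adjusted p 0.664). The unfolded protein response list had 18 of 25 genes higher but a median of 0.08, and 0 of its genes had an unadjusted p under 0.05. Among imprinted growth genes 9 of 13 were higher, with a median of 0.33, and 7 were diabetes-type, against 2396 of 16604 genes. In limma 0 of the 13 passed and 3 had an unadjusted p under 0.05. *H19*, a noncoding RNA, measured 9.34, 9.20 and 8.90 in C + P and 9.85, 10.58 and 10.88 in D + P (difference 1.29, adjusted p 0.193).

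Interferon-induced and MHC genes were higher in 19 of 31, with a median of 0.12 but -0.36 between D and C. *Irf7* measured 10.34, 10.40 and 10.56 in C + P and 11.07, 11.26 and 11.01 in D + P (difference 0.68, adjusted p 0.359), a D + P-only pattern. For insulin, IGF and AKT signalling 16 of 38 genes were higher and the median was -0.06; *Igf1r* differed by 0.32 (adjusted p 0.721), *Mapk10* by -0.35 (adjusted p 0.619) and *Grb10* by -0.45 (adjusted p 0.672). For autophagy and lysosome 18 of 37 were higher, with a median of -0.02. Cytosolic ribosomal genes had 27 of 47 higher and a median of 0.04.

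The largest rises that were not diabetes-type were *Cyp26b1*, *Vsig10l*, *Loxhd1* and *Cirbp*. *Cyp26b1*, which degrades retinoic acid, measured 5.79, 7.88 and 8.12 in C + P and 10.89, 9.97 and 10.31 in D + P (difference 3.13, adjusted p 0.337), but C ranged from 8.08 to 10.96. *Loxhd1* measured 7.11, 7.06 and 9.05 in D + P and at most 6.55 elsewhere (difference 1.66, adjusted p 0.396), a size set by D + P replicate 3, without which it was 1.00. The D + P level of *Vsig10l* was higher at least 1.43-fold, and its further probe differed by -0.31. *Cirbp*, a cold-inducible RNA-binding protein, was 1.65 higher on a dim probe and 0.75 higher on a bright one (adjusted p 0.374), and a further probe, above background on all 6 arrays, differed by 0.06 (adjusted p 0.972).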

How the data were processed

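Heart RNA of 12 mice was labelled with Cy3 and hybridised to single-channel Agilent arrays, 1 mouse per array, by the authors. The deposited scanner files (Feature Extraction 12.0.0.7 per the file headers) give intensity on a linear scale after background subtraction within the array. The deposited series table holds intensity that the authors quantile normalised, for 47757 spots. Ranks matched those of the same array (Spearman's rho at least 0.99997, at most 0.964 with another array), column medians were 41.8 to 41.9, and the scale is linear and uncentred. It served as an alternative.

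Here the intensity was log2 transformed and quantile normalised over 12 arrays, control and outlier spots were left out, and repeated spots were averaged. Testing was limited to the 30859 of 56605 probes flagged positive and significant in 50% or more of each group's arrays. Other values of these probes (2.03%) were kept. RefSeq names (GRCm38.p6) matched 20774 tested probes, and otherwise the file's symbol was used (26301 had a symbol). Probe positions are those of the files (mm9), which do not say which part of a transcript is covered. Lists used the brightest tested probe of each of 16604 genes.

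The model held a mean for each group over all 12 arrays and was fitted by lmFit and eBayes (limma 3.58.1, R 4.3.3), with 8 residual and 2.62 prior degrees of freedom. Tests were two-sided, with Benjamini-Hochberg adjustment over all tested probes. The number of arrays limits precision: an exact permutation test of 3 against 3 cannot go below p = 0.1. On simulated data of 30859 probes the fit called 30 of 100 probes changed 2-fold and 73 of 100 changed 4-fold in D + P against C + P.

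Named genes were all called probes, the 10 largest rises and falls with an unadjusted p under 0.01, no overlap and a higher group well above background, the 10 diabetes-type rises and falls with the largest mean of both diabetes differences, up to 4 members per list by p, members that define a list, and the 8 qRT-PCR genes. *Gadd45b*, *Igf1r*, *Grb10* and other list members outside this rule were chosen after their values were seen. The comparison and the 42 gene lists and 15 marker lists were chosen with earlier results of these data known. If none of a group's arrays had a probe well above background, its change is a bound (at least N-fold), taken per dim array against its own value or the lowest signal well above background there, whichever was larger. Alternatives covered scaling, background, filters, array weights, blocks, the methods' t-test and left-out arrays. The authors' lists of changed genes were not used. Some genes that the rule names are not reported here. Figures were drawn with Python and matplotlib.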

Additional observations from a re-analysis of the deposited data

Results flagged for a closer look

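The difference between diabetic and control hearts was itself different with and without pargyline for *Egr1* and *Nr4a1*, tested as an interaction in limma over all 12 arrays. The interaction was -3.62 for *Egr1* and -4.07 for *Nr4a1*, both at an adjusted p of 0.0221. The sign follows the C + P arrays, which were above the other 9 for both genes. Over 23 alternative fits the adjusted p ranged from 0.00175 to 0.187 for *Egr1*, past the threshold in 9, and from 0.00145 to 0.150 for *Nr4a1*, past it in 10. All values of both interactions were negative, from -3.84 to -3.36 and from -4.39 to -3.75. The arrays of C + P and D + P shared a slide, and what set the C + P level was not tested.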

How the results depend on the processing

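The 14 calls in D + P against C + P (1 higher, 13 lower) became 2 (0 higher, 2 lower) with only the 6 arrays fitted, whether normalised over all arrays (1992 with an unadjusted p under 0.05) or over the 6, 24 (6 higher) without a filter, 69 (20 higher, 49 lower) with array weights, 8 (7 lower) with the replicate block and 6 (5 lower) with the slide column as a block. The methods' t-test called 1 higher and 0 lower by Benjamini-Hochberg, 0 of them among the 14, 1 by Bonferroni and 2022 at an unadjusted p under 0.05. The count of higher calls was 2 with the 75th percentile scaling, normexp, the stricter filter and values not positive set to missing. Leaving out 1 array gave 5 to 32 calls, 0 to 12 higher and 5 to 20 lower. Leaving out both arrays numbered 1 of C + P and D + P (chosen after seeing the data) gave 21 calls, 7 of them higher, of which 8 were among the 14. The 2 interaction calls became 4 with normexp, the stricter filter, values set to missing and the intensity trend with a robust prior, 5 without a filter and with array weights, 0 with the replicate block, the slide column block and without both arrays numbered 1 (limma; 2170 interactions had an unadjusted p below 0.05 as reported), and 0 to 2 when 1 array was left out. Replicate numbers do not pair the samples: deviations of same-numbered C + P and D + P arrays correlated at 0.0525, 0.0191 and -0.204, against -0.170 to 0.204 for other pairs.

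The 14 called probes kept their direction in all 362 refits and lost the threshold in 149 of them. Another 28 probes, named by size of difference, as diabetes-type or as qRT-PCR genes, kept their direction in all 728 refits and passed in 26. Genes named only as members of a list were not part of this count. Of 715 refitted medians of 55 lists, 21 moved by more than the spread between replicates, none of them that of the immediate early genes (-0.56 to -0.41) or heat shock genes (-0.32 to -0.16). The platelet median was -1.01 with normexp, against -2.50. No scaling moved the median of all genes by more than 0.1.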
